A study of Mus musculus with 16 samples.

Results

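The goblet mucus companion genes encode secreted or secretory-pathway proteins that accompany the gel-forming mucin of the intestine. They were taken as a list of 9 named genes, *Fcgbp*, *Clca1*, *Zg16*, *Tff1*, *Tff2*, *Tff3*, *Spink4*, *Retnlb* and *Agr2*, found by symbol among the 45513 genes of the count files. All 9 were found, 6 had enough counts to be tested, and *Tff1*, *Tff2* and *Retnlb* fell below the filter on low counts.

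RNA was sequenced from small intestinal epithelial cells of 8 mice, with 1 tdTom+ and 1 tdTom- library from each mouse, to ask which transcripts mark cells with a history of *Atoh1* expression. All mice were homozygous for *Atoh1*(WT)CreERT2, heterozygous for the *Rosa26* tdTomato reporter (R26RtdTom), on a C57BL/6 background and 8 to 16 weeks old, of both sexes, and the groups are the reporter-positive and reporter-negative cells of the same animals. By the labels, and by the animal methods of the study for this secretory signature, they had received 1 mg tamoxifen on each of 3 days, while its general RNA sequencing methods name a single dose of 3 mg. The recombinase is made from the *Atoh1* locus and the reporter is inherited by daughter cells, so a tdTom+ cell need not express *Atoh1* when it is sorted, and a cell in which recombination failed is tdTom-. The villus-rich first fraction was discarded and live cells were sorted on EpCAM, an epithelial surface protein, so both groups come from crypt-rich material.

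Goblet cells release MUC2, which unfolds into the mucus layer, together with a set of smaller or associated proteins. FCGBP is a large multidomain protein bound to the mucin network, CLCA1 is a metalloprotease that loosens it, and ZG16 is a lectin-like protein that binds Gram-positive bacteria. The trefoil factors TFF1, TFF2 and TFF3 are compact disulphide-rich peptides of the mucosa, of which TFF3 is the intestinal form and TFF1 and TFF2 are best known from the stomach. SPINK4 belongs to a family of serine protease inhibitors, RETNLB is a resistin-like antimicrobial protein that is induced in goblet cells by parasites and bacteria, and AGR2 is a protein disulphide isomerase of the endoplasmic reticulum needed to fold MUC2.

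The members lie at 7 loci (GRCm38, coordinates of the count files). *Fcgbp* is at chr7:28071236-28120862 on the plus strand, *Zg16* at chr7:127050156-127051977 on the minus strand, *Clca1* at chr3:145003817-145032776 on the minus strand, *Spink4* at chr4:40920052-40931395, *Agr2* at chr12:35992907-36004087 and *Retnlb* at chr16:48816856-48818891, the last 3 on the plus strand. The 3 trefoil genes stand side by side on the minus strand of chromosome 17, *Tff3* at chr17:31125306-31129646, *Tff2* at chr17:31141049-31144282 and *Tff1* at chr17:31161396-31165053, a stretch of 39.7 kilobases. Counts were summed over exons, 10497 bases of exon for *Fcgbp*, 3777 for *Clca1*, 1291 for *Agr2* and between 477 and 695 for each of the other members. Reads were 50 bases long, and 6.42% of the distinct 50-base words in *Fcgbp* transcripts also occur in 9530053A07Rik or B230219D22Rik, so a small part of the *Fcgbp* counts could be split with these genes. None of the words of the other 8 members occurs in another gene.

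The trefoil sequences are shown because a neighbouring paralog could take part of the reads of *Tff3*. The nearest ungapped 50-base coding stretches, both in exon 2, are given 5′ to 3′ with the positions that differ in capitals, from GENCODE M21 transcripts. The stretches of the first pair are chr17:31127384-31127433 against chr17:31143133-31143182, with 14 differences, and those of the second are chr17:31127421-31127470 against chr17:31162723-31162772, with 15, all on the minus strand.
Tff3: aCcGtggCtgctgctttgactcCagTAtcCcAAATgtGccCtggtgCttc
Tff2: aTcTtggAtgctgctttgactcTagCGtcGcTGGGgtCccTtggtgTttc
Tff3: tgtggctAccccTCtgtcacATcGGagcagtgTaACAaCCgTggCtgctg
Tff1: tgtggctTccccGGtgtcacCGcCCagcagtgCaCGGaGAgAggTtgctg

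A RefSeq promoter entry (GRCm38.p6) was matched for 2 of the 9 members, *Fcgbp* and *Agr2*. The 250 bases before the start are shown because both genes were higher in tdTom+ and *Atoh1* encodes a factor that binds E-boxes. Binding was not tested. Motifs were searched on both strands in the same 250 bases of 27025 mouse promoters. The E-box CAGCTG is held by 14.72% of them and the E-box form CAGATG by 16.31%. The forkhead form TGTTTAC is held by 3.537%, its variant TATTTAC by 3.171%, and the TATA box letters TATAAA by 14.33%. Other forms of the E-box and of the TATA box, some of which stand in the printed sequences, were not searched. The *Fcgbp* promoter, chr7:28070986-28071235 on the plus strand, held CAGCTG 208 bases before the start, in capitals, and none of the other searched letters. The *Agr2* promoter, chr12:35992675-35992924 on the plus strand, held none of the searched letters. Its RefSeq start lies a few bases after the start in the count files.
Fcgbp: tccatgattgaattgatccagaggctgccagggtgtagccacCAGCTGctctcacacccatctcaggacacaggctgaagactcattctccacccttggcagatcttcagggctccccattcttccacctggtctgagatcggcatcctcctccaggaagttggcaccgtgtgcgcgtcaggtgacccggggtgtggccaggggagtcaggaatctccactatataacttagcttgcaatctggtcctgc
Agr2: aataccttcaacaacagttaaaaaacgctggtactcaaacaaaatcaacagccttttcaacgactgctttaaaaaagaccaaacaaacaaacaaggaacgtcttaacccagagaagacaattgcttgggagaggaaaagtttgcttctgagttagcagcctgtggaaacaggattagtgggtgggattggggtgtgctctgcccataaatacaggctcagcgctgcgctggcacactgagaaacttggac

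Libraries held between 17116405 and 25323567 counts. *Atoh1*, whose locus drives the label, had a mean of 62.5 ± 12.7 CPM (TMM-normalised counts on a common library-size scale) where the reporter was on and of 0.718 ± 0.247 CPM where it was off (SD, n = 8 each). *Epcam*, the sort marker, had 942 ± 56.6 and 1019 ± 53.8 CPM and did not pass the test (log2 fold change -0.11, edgeR adjusted p = 0.109). All 8 absorptive markers were lower and all 8 Paneth markers higher in tdTom+ cells, beside 30.0% lower and 25.8% higher among all genes tested. Paneth cells are the other granule-filled secretory type of the crypt, and in bulk RNA fewer cells of a type cannot be told apart from less RNA per cell.

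The members took a large part of the tdTom+ libraries and almost none of the others. Together the 9 genes held 11.1% to 22.3% of tdTom+ counts, with a median of 17.5%, and 0.0964% to 0.144% of tdTom- counts, with a median of 0.111%. The means were 17.5% ± 4.0 and 0.116% ± 0.0200 (SD, n = 8 each). The lowest tdTom+ share, in mouse 7, was far above the highest tdTom- share, in mouse 1, and the highest tdTom+ share was that of mouse 3.

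**Figure D1:**
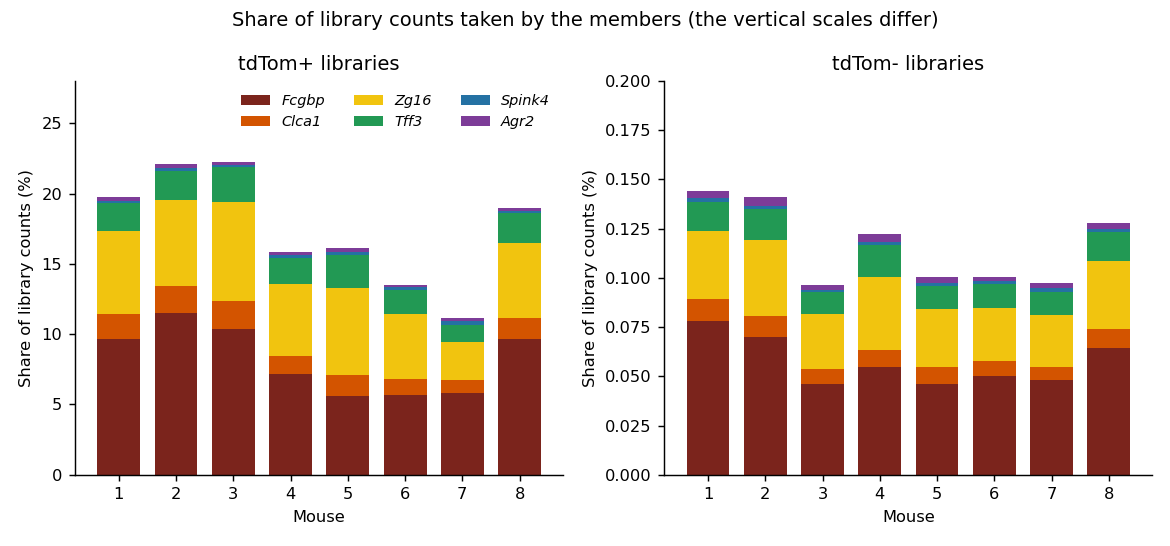
Stacked bars give the share of library counts (percent) of the 6 tested members in each mouse, tdTom+ on the left and tdTom- on the right, on different vertical scales. The summed share lies between 11.1% and 22.3% in tdTom+ and does not exceed 0.144% in tdTom- libraries, and *Fcgbp* and *Zg16* make up most of each bar.

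*Fcgbp* and *Zg16* made up most of this share. *Fcgbp* alone held 8.19% ± 2.38 of tdTom+ counts (SD, n = 8) and was the most counted gene of all in 7 of 8 libraries. In the remaining library, that of mouse 5, *Zg16* was the most counted gene. By counts, *Fcgbp* was 46.7% ± 5.93 of the members' sum in tdTom+ libraries, *Zg16* 30.9% ± 4.36, *Tff3* 11.4% ± 1.65 and *Clca1* 8.48% ± 0.509 (SD, n = 8). *Agr2* and *Spink4* were 1.30% ± 0.233 and 1.28% ± 0.547 of it. The make-up of the small tdTom- sum had the same order, with *Fcgbp* at 49.1% ± 2.85 and *Zg16* at 27.6% ± 1.93, but *Agr2* took 2.77% ± 0.261 of it, and its range of 2.28% to 3.16% lay above its tdTom+ range of 1.04% to 1.75%.

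All 6 tested members were higher in tdTom+ cells (edgeR quasi-likelihood test with the mouse as block, adjusted p under 0.01), where 25.8% of the 15323 genes tested were called higher. Their log2 fold changes ran from 6.18 for *Agr2* to 7.45 for *Clca1*, and the median over all genes tested was 0.02. In each of the 6 every tdTom+ library stood above every tdTom- library, as it did for 14.6% of genes tested, and the change had the same direction in 8 of 8 mice.

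**Figure D2:**
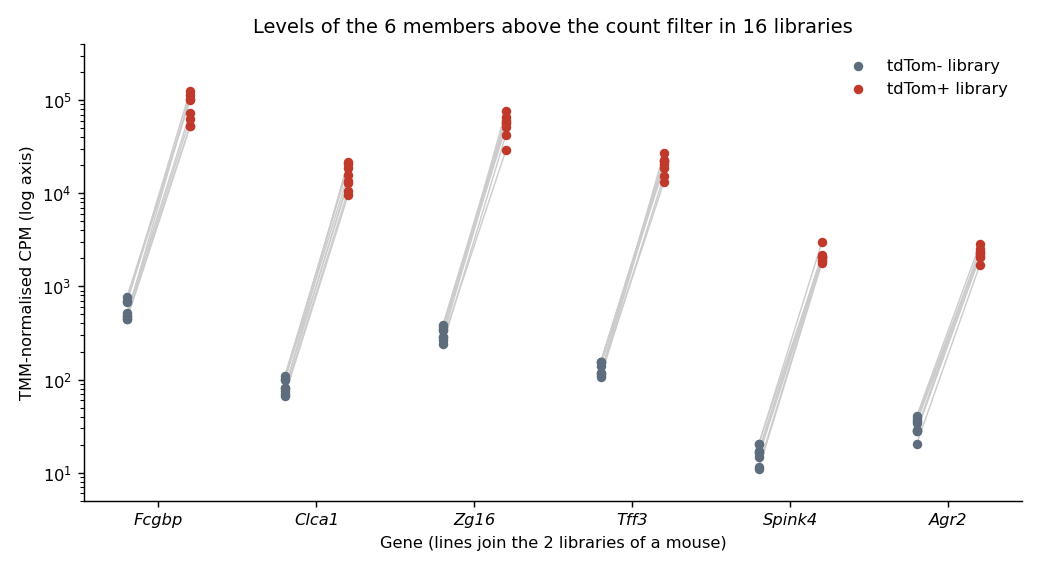
Points are TMM-normalised CPM on a log axis for the 6 tested members in 16 libraries, with lines that join the tdTom- and tdTom+ library of a mouse. For every member the 8 tdTom+ points lie above the 8 tdTom- points, and *Agr2* rises least, by 6.18 on the log2 scale.

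Among the proteins of the mucin network, *Fcgbp* ran from 52164 CPM to 125309 CPM in tdTom+ libraries, with a median of 86672. In tdTom- libraries it ran from 446 to 766 CPM, with a median of 497. Mouse 2 was highest and mouse 5 lowest in tdTom+, and the fractions were separated by a wide gap in which no library fell. The fold change was 7.19 ± 0.17 on the log2 scale (SE; adjusted p = 4.97e-13), or 146-fold, and 6.87 to 7.87 within single mice. Counting error was small beside this spread, since the lowest tdTom+ share of 5.63% had an exact 95% interval (Clopper-Pearson, counting error only) of 5.62% to 5.64%.

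*Clca1* ran from 9512 to 21762 CPM in tdTom+ libraries, with a median of 14477, and from 67.3 to 110 CPM in tdTom- libraries, with a median of 80.7. It was lowest in mouse 7 in both fractions. Its share of tdTom+ counts was 1.49% ± 0.385, against 0.00871% ± 0.00150 of tdTom- counts (SD, n = 8 each). At 7.45 ± 0.15 (log2, SE; adjusted p = 1.10e-13) it had the highest fold change of the 6, the 16th among genes tested. The 5 members other than *Agr2* lay between 7.06 and 7.45, with an SE of 0.10 to 0.17 each, and were not tested against each other.

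*Zg16* ran from 29096 to 77094 CPM in tdTom+ libraries, with a median of 57049, and from 238 to 381 CPM in tdTom- libraries, with a median of 315. Mouse 7 was lowest and mouse 3 highest in tdTom+, a 2.65-fold range and the widest of the 6 members. *Zg16* held 5.38% ± 1.31 of tdTom+ and 0.0320% ± 0.00486 of tdTom- counts (SD, n = 8 each). The change was 7.43 ± 0.17 on the log2 scale (SE; adjusted p = 3.91e-13).

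*Tff3*, the intestinal trefoil factor, ran from 13153 to 26848 CPM in tdTom+ libraries, with a median of 21199, and from 108 to 155 CPM in tdTom- libraries, with a median of 129. As for *Zg16*, mouse 7 was lowest and mouse 3 highest in tdTom+. Its share was 1.97% ± 0.397 of tdTom+ and 0.0135% ± 0.00204 of tdTom- counts (SD, n = 8 each), and its log2 fold change 7.24 ± 0.15 (SE; adjusted p = 1.64e-13).

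The other two trefoil genes had a few counts at most. *Tff2* had 8, 1, 3, 7, 6, 8, 7 and 6 counts in the tdTom+ libraries of mice 1 to 8, 46 in all, and 0 counts in every tdTom- library. *Tff1* had 2 counts in mouse 3, 1 in mouse 5 and 1 in mouse 7 in tdTom+, 4 in all, and 0 elsewhere. Every *Tff1* count, and the *Tff2* counts of 2 tdTom+ libraries, were at or under the 3 counts taken as the floor of a library. Over the 8 tdTom- libraries a count of 0 allows up to 0.0184 CPM. *Tff2*, at 0.275 CPM over the pooled tdTom+ counts, stood 15.0-fold above that limit. This ratio leaves out the counting error of its own 46 counts. No fold is given for *Tff1*, at 0.0239 CPM over the pooled tdTom+ counts. Without the filter on low counts, where 15.6% of 27852 genes were called higher, *Tff2* was called (edgeR adjusted p = 5.33e-05; DESeq2 adjusted p = 7.74e-06) and *Tff1* was not (edgeR adjusted p = 0.224).

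The 3 paralogs within 39.7 kilobases, whose nearest coding stretches are printed above, differed from 20184 ± 4349 CPM for *Tff3* to 0.275 ± 0.115 for *Tff2* and 0.0275 ± 0.0455 for *Tff1* in the same tdTom+ cells (SD, n = 8). Per kilobase of exon the mean levels were 40941, 0.470 and 0.0575 CPM. The next protein-coding genes on either side were also low beside *Tff3*, and their means were higher in tdTom+ than in tdTom-. *Abcg1*, a sterol transporter gene, had 5.31 ± 1.53 CPM in tdTom+ and 0.500 ± 0.148 CPM in tdTom- libraries, with separate ranges. *Tmprss3*, a serine protease gene, had 0.215 ± 0.123 and 0.0114 ± 0.0322 CPM, with overlapping ranges. These neighbours were named after their values were seen. Beside the trefoil values, 2 of the 3 tested genes of an 8-gene list for stomach and Brunner glands were higher in tdTom+, as were 25.8% of all genes tested. These 2 were *Pgc* at 4.69 ± 1.11 against 1.81 ± 0.641 CPM and *Gkn3* at 8.19 ± 3.52 against 5.29 ± 1.87 CPM (SD, n = 8 each). The list summed to between 10.3 and 23.8 CPM in tdTom+ and between 3.33 and 10.6 CPM in tdTom- libraries, with *Atp4b* at 0 in every library. Of its other genes below the filter, *Muc6* had 0.212 and 0.00629 CPM (tdTom+ and tdTom- means) and was higher in tdTom+ in 8 of 8 mice, *Gkn1* had 0.159 and 0 CPM and was higher in 7 of 8, *Muc5ac* had 0.0463 and 0.0121 CPM, and *Gkn2* 0.0255 and 0 CPM. Its part in the *Tff1* and *Tff2* counts was not tested.

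*Spink4* ran from 1781 to 2971 CPM in tdTom+ libraries, with a median of 2057, and from 10.9 to 20.3 CPM in tdTom- libraries, with a median of 16.5. Mouse 7 was highest in tdTom+ and stood apart from the other 7, which reached 2171 CPM at most, and mouse 3 was lowest in both fractions. The share was 0.206% ± 0.0321 of tdTom+ and 0.00163% ± 0.000347 of tdTom- counts (SD, n = 8 each). The change was 7.06 ± 0.10 on the log2 scale (SE; adjusted p = 1.47e-14).

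*Retnlb* was rare and uneven among mice. Its tdTom+ counts in mice 1 to 8 were 14, 7, 9, 9, 13, 6, 43 and 9, with a single count in the tdTom- library of mouse 4 and 0 in the other 7. The library of mouse 7 therefore held 43 of 110 tdTom+ counts, a share of 0.000201% (exact 95% interval 0.000145% to 0.000271%). The pooled ratio of tdTom+ to tdTom- was 107 with a counting interval of 18.9 to 4284, and 65.0 (11.3 to 2606) without mouse 7. In the fit without a count filter *Retnlb* was called higher (edgeR adjusted p = 3.74e-09; DESeq2 adjusted p = 7.35e-11), and it had more counts in tdTom+ in 8 of 8 mice.

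*Agr2*, the folding enzyme, ran from 1700 to 2823 CPM in tdTom+ libraries, with a median of 2275, and from 20.4 to 40.3 CPM in tdTom- libraries, with a median of 31.5. Mouse 2 was highest and mouse 6 lowest in both fractions. It held 0.220% ± 0.0233 of tdTom+ and 0.00322% ± 0.000655 of tdTom- counts (SD, n = 8 each). Its change of 6.18 ± 0.09 on the log2 scale (SE; adjusted p = 1.47e-14) was the lowest of the 6, a 72.3-fold difference.

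A small part of the level of each of the 6 tested members remained in tdTom- cells. In the 8 mice *Agr2* stood in tdTom- at 1.39% ± 0.172 of its tdTom+ level (SD), and the other 5 tested members at means between 0.582% and 0.756%. *Agr2* had the highest remaining level of the 6 in 8 of 8 mice, and its lowest value, 1.13%, lay above the highest value of the others, 0.973%, a difference that was not tested. Summed marker lists without the members gave values in the same range for goblet cells, at 0.347% to 0.844% of the summed tdTom+ level, and Paneth cells, at 0.364% to 0.770%. The goblet sum was mostly *Muc2*, with a mean of 13380 CPM in tdTom+, while its other genes had means of 95.6 to 309 CPM. Taken singly, *Galnt12* and *Ern2* of that list had log2 fold changes of 4.48 and 6.18, beside 6.18 for *Agr2*. The other genes of that list had 6.74 or more. The enteroendocrine list stood at 17.9% to 47.9%, the tuft list at 18.3% to 53.6% and the stem cell list at 52.4% to 130%. The part of secretory cells that reached the tdTom- gate in the members' tdTom- counts was not tested.

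**Figure D3:**
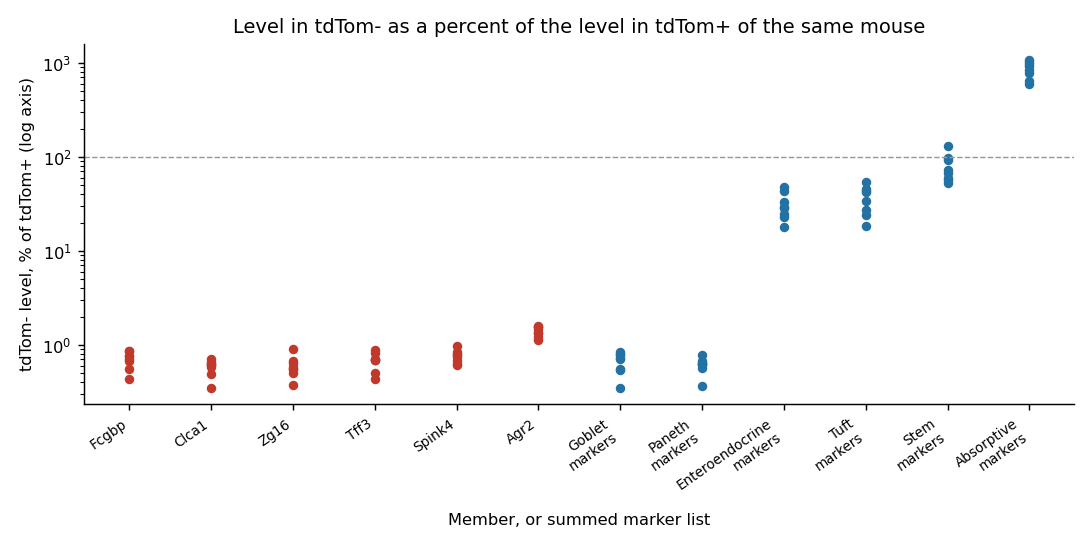
Each point is 1 mouse and gives the tdTom- level as a percent of the tdTom+ level on a log axis, for the 6 tested members (red) and for the summed CPM of marker lists of 8 genes (blue), with a dashed line at equal levels. *Agr2* lies between 1.13% and 1.60%, above the other members, and the goblet and Paneth sums lie no higher than 0.844%. The goblet sum is mostly *Muc2*.

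Counts favour long transcripts, so levels of different members were compared per kilobase of exon. In tdTom+ libraries the order was *Zg16* at 86899 ± 23021 CPM per kilobase, *Tff3* at 40941 ± 8821, *Fcgbp* at 8100 ± 2722, *Spink4* at 4435 ± 772, *Clca1* at 4069 ± 1211 and *Agr2* at 1755 ± 257 (SD, n = 8). *Zg16* was above *Tff3* in 8 of 8 mice although their ranges overlapped, and *Tff3* was above *Fcgbp* in 8 of 8 with separate ranges. *Fcgbp* was above *Spink4* in 7 of 8 mice. *Spink4* and *Clca1* did not separate, with that order in 5 of 8 mice and a ratio of means of 1.09, and the order turned when mouse 7 was left out. *Clca1* was above *Agr2* in 8 of 8 mice with separate ranges.

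**Figure D4:**
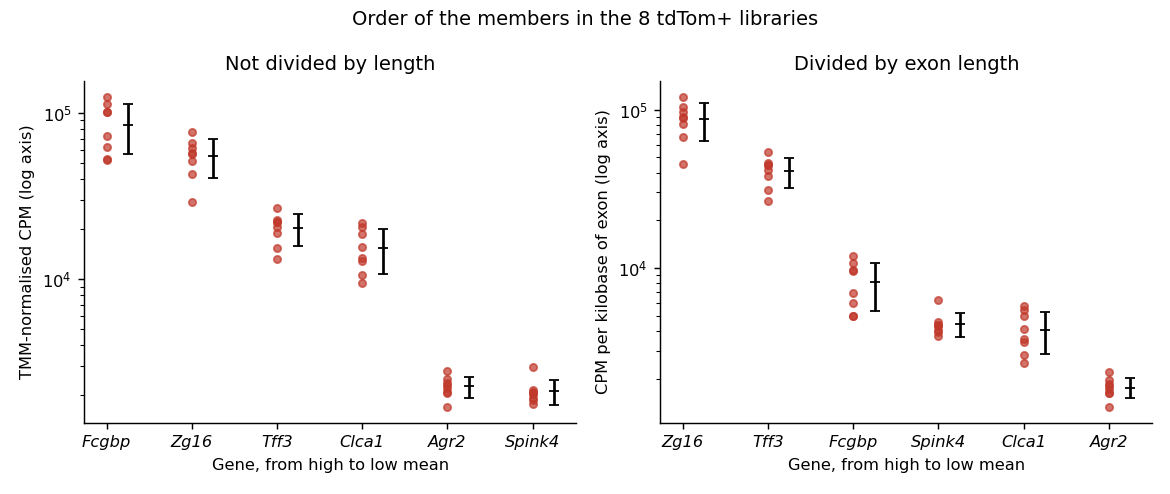
Levels of the 6 tested members in the 8 tdTom+ libraries, as TMM-normalised CPM on the left and CPM per kilobase of exon on the right, on log axes, with points for libraries and bars for mean and SD. None of the 6 members keeps its place: *Fcgbp* leads before and *Zg16* leads after division by length.

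In tdTom- libraries the order per kilobase was the same for the first 4 places, from *Zg16* at 493 ± 80.1 through *Tff3* at 267 ± 41.4 and *Fcgbp* at 53.6 ± 12.1 to *Spink4* at 33.5 ± 7.27 CPM per kilobase (SD, n = 8). *Agr2*, at 24.5 ± 5.13, then stood beside *Clca1*, at 22.6 ± 4.11, and was above it in 7 of 8 mice with overlapping ranges. In tdTom+ libraries *Retnlb* and *Tff2* stood at 0.992 ± 0.882 and 0.470 ± 0.198 CPM per kilobase.

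Set against *Muc2* of the same library, which does not depend on scaling, *Fcgbp* reached 645 ± 95.4 counts per 100 *Muc2* counts in the labelled cells and 785 ± 54.3 in the unlabelled ones (SD, n = 8 each). It was higher in tdTom- in 8 of 8 mice, although its ranges of 518 to 783 and 697 to 865 overlapped. *Agr2* had 18.2 ± 4.26 and 44.3 ± 4.93, also higher in tdTom- in 8 of 8 mice, and its ranges of 11.9 to 24.5 and 36.3 to 52.2 did not overlap. *Tff3*, with 160 ± 40.9 and 187 ± 22.0, and *Spink4*, with 18.1 ± 8.35 and 22.7 ± 5.50, were each higher in tdTom- in 7 of 8 mice. *Clca1* was nearly level, with 118 ± 17.7 and 120 ± 4.79 counts per 100, higher in tdTom- in 5 of 8 mice. So was *Zg16*, with 431 ± 102 and 442 ± 40.5, also higher in tdTom- in 5 of 8. The log2 fold change of *Muc2*, 7.49, was above those of the tested members, 6.18 to 7.45, and these ratios restate that difference.

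The members did not vary together in all respects. Over the 8 tdTom+ libraries the SD of log2 CPM was 0.51 for *Fcgbp*, 0.44 for *Clca1*, 0.43 for *Zg16* and 0.33 for *Tff3*, and 0.22 for both *Spink4* and *Agr2*. *Zg16* and *Tff3* moved together most closely (Pearson r = 0.968), followed by *Zg16* and *Clca1* (r = 0.920). *Spink4* had a negative r with each of the other 5, from -0.0695 with *Agr2* to -0.781 with *Zg16*. These values of r are descriptions over 8 libraries that share their scaling and cell make-up with each other. Without mouse 7 the r of *Spink4* with *Zg16* was -0.164, and with *Fcgbp* it turned from -0.152 to 0.288, whereas *Zg16* with *Tff3* stayed at 0.952. In tdTom- libraries *Spink4* had a positive r with all 5 others, from 0.441 with *Clca1* to 0.625 with *Agr2*.

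Mouse 7 stood apart in these comparisons. Its tdTom+ library had the highest *Spink4* and *Retnlb* and the lowest *Clca1*, *Zg16* and *Tff3* of the 8. It also had the highest summed level of the 8 Paneth markers, 139451 CPM against 52683 to 97277 CPM in the other 7 libraries. Its summed goblet markers, at 9644 CPM, were near the low end. Only mouse 6 was lower, at 9207 CPM, and the highest sum was 22952 CPM, in mouse 3. The *Muc2* share of mouse 7, 0.795% of tdTom+ counts, was the lowest of the 8. All 8 Paneth markers had counts in every tdTom+ library. The same library had the lowest absorptive sum, 1563 CPM against 2821 to 6021 CPM, and the highest stromal sum, 45.8 CPM against 18.6 to 29.6 CPM. That stromal sum was mostly *Vim*, with a mean of 23.4 CPM over tdTom+ libraries. *Acta2* had 2.11 CPM, *Pecam1* 1.16 CPM and the rest of the list no more than 0.0316 CPM, so it says little about stromal cells. The tdTom- library of mouse 7 also had the lowest absorptive sum, 14550 CPM against 24823 to 38346 CPM, and the highest stem cell sum, 2911 CPM against 1198 to 1835 CPM. The part of these cell types in the values of mouse 7 was not tested.

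**Figure D5:**
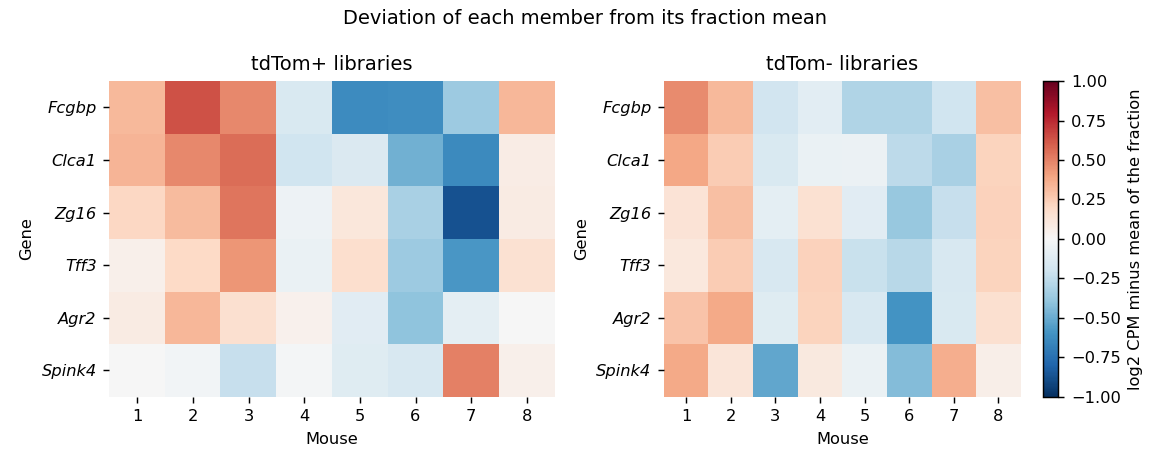
Colours give log2 CPM minus the mean of the fraction for each tested member (rows) and mouse (columns), tdTom+ on the left and tdTom- on the right. In tdTom+ mouse 7, *Zg16* is 0.87 below and *Spink4* 0.51 above the mean of its fraction.

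A member's level in the 2 fractions of a mouse also moved together, with r over 8 mice of 0.842 for *Agr2*, 0.748 for *Fcgbp*, 0.726 for *Spink4*, 0.674 for *Clca1*, 0.542 for *Zg16* and 0.310 for *Tff3*, which are descriptions.

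To find the genes most like each member, log2 CPM over the 16 libraries was correlated with that of 8890 other genes after the mean of each fraction was removed. *Fcgbp* was nearest to 9530053A07Rik (r = 0.987), a related gene with which it shares sequence, then to *Slc35c1*, a GDP-fucose transporter (0.920), and *Muc2* (0.919). *Clca1* was nearest to *Muc2* (0.928), 9530053A07Rik (0.911) and *Zg16* (0.900). *Zg16* and *Tff3* were each other's nearest gene (0.958). They were followed by *Clca1* (0.900) and *Fer1l6* (0.897) for *Zg16*, and by *Plek2* (0.889) and *Ttyh1* (0.853) for *Tff3*. *Spink4* had no other member or mucin among its nearest genes, which were Gm6682 (0.868), *Exoc4*, of the exocyst (0.855), and *Yars*, a transfer RNA synthetase (0.842). For *Agr2* they were *Ptger4*, a prostaglandin receptor (0.829), *Sh3pxd2a* (0.824) and *Ccl6*, a chemokine (0.815).

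Close relatives of the members mostly did not follow them. Of 18 symbols listed, which include *Fcgbpl1* as another name of 9530053A07Rik, 15 were in the annotation and 10 were tested. There were 3 higher and 4 lower relatives in tdTom+, beside 25.8% higher and 30.0% lower among all genes tested, with a median log2 fold change of 0.10. The higher ones were 9530053A07Rik, at 5740 ± 1838 against 36.1 ± 7.45 CPM (log2 fold change 7.27), *Clca2* (4.38) and *Agr3* (1.65). The 3 with the lowest change were *Clca4a* (-3.51), *Spink1*, another protease inhibitor (-3.03), and *Clca4c-ps* (-3.01). *Clca3a1*, *Clca3a2* and *Clca3b* did not pass the test, at 0.16, 0.05 and 0.19. The resistin family genes *Retn*, *Retnla* and *Retnlg* were below the filter.

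Genes of the mucin and its handling were called in both directions. Of 20 listed, 17 were tested, 7 were higher and 9 lower, beside 25.8% and 30.0% of all genes tested, with a median log2 fold change of -0.54. *Muc2* had 13380 ± 4790 CPM in labelled and 71.5 ± 14.3 CPM in unlabelled cells (SD, n = 8 each), and its change was 7.49 ± 0.17 on the log2 scale (SE; adjusted p = 3.88e-13). *Ern2*, the goblet form of the stress sensor IRE1, followed at 6.18, and *Agr3*, a relative of *Agr2*, at 1.65. The lowest were *Mep1b* and *Mep1a*, subunits of the meprin protease that releases mucus (-2.87 and -2.46), and *Slc26a6*, an anion exchanger (-2.79).

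Of 11 transcription factors listed for goblet cells all were tested and 10 were higher, with a median log2 fold change of 4.88. Beside this list and those that follow, 25.8% of all genes tested were higher and 30.0% lower. The highest factors were *Spdef* at 6.74, *Atoh1*, whose locus drives the label, at 6.43 and *Gfi1* at 5.49. The lowest of the 10 were *Xbp1* at 1.12 and *Klf4* at 1.40. *Hnf4g* moved the other way at -2.0. Of 23 listed enzymes of mucin O-glycosylation 22 were tested, 16 were higher and 3 lower, with a median of 1.36. *Galnt5* (6.44), *Gcnt3* (5.28) and *Galnt12* (4.48), which start or branch the glycans, were highest, and the 3 lower ones were *St3gal4* (-2.18), *Gcnt4* (-1.64) and *St6galnac1* (-1.27), the last at 0.429 ± 0.226 CPM in tdTom+. Of 20 other goblet genes 19 were higher, with a median of 5.39. *Ccl6* (7.38), *Pla2g10* (7.37) and *Capn9* (7.16) led, *Stard3nl* (1.46) and *Ostc* (0.58) were the lowest called, and *Kcnn4* did not pass (0.31, adjusted p = 0.0682).

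Other cell types moved as well. All 8 listed enteroendocrine markers and all 7 tested tuft markers were higher in tdTom+, with medians of 1.85 and 1.39, and 4 of 8 stem cell markers were higher. Among all genes tested 25.8% were higher and 30.0% lower. Of the immune list 6 of 7 tested genes were lower, summing to at most 25.2 CPM in tdTom+ and 132 CPM in tdTom- libraries. Of the stromal list 3 genes were tested and *Vim* (3.38) was higher, while *Col3a1* and *Dcn* had 0 counts in every tdTom+ library. The pancreatic acinar list had 1 tested gene, *Cela1*, which did not pass (0.00), and 5 of its 8 genes had 0 counts in tdTom+. *Ctrb1* of that list, below the filter, had 0.854 CPM in tdTom+ and 0.0406 CPM in tdTom- libraries and was higher in tdTom+ in 8 of 8 mice. Against these, the members' log2 fold changes of 6.18 to 7.45 lay nearest to those of the Paneth and goblet lists, at medians of 7.43 and 6.93.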

How the data were processed

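EpCAM+ tdTom+ and tdTom- cells of 8 mice gave 16 libraries. The authors aligned 50-base single-end reads to GRCm38 with TopHat2 (2.1.1 per the submitters' processing notes), and what they deposited are unnormalised read counts for each Ensembl gene. The file headers name featureCounts 1.5.0-p1 and the notes Subread 1.5.2, run on primary alignments on the reverse strand. Symbols came from GENCODE M21, which matched 44585 of 45513 identifiers. The group label gave the fraction and the title number the mouse.

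Genes were kept by filterByExpr (15323 genes), scaled by TMM and tested with the quasi-likelihood test of edgeR 4.0.16 (R 4.3.3) with the mouse as replicate block, Benjamini-Hochberg adjusted over all genes tested at 0.01. By the series design each mouse gave both fractions, and same-numbered libraries deviated together (mean r 0.426, lowest 0.245, other pairs -0.0569). Without the replicate block 7606 genes were called, against 8556 with it, and 6 members in both. Each SE was obtained from the change and its F statistic (change over root F). Log2 CPM used a prior count of 2. Alternatives used DESeq2 1.42.0 and limma 3.58.1, other scalings, filters and thresholds, thinning, and leaving out each mouse.

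Members, lists and tests were chosen with earlier results of these data known. Genes named are the 9 members, the 3 highest and 3 lowest log2 fold changes of each list and genes that moved against the rest of it, the 3 genes most correlated with each tested member at 10 CPM or more in tdTom+, *Atoh1* and *Epcam*. No batch is labelled. Intervals and floors cover counting error only.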

Additional observations from a re-analysis of the deposited data

Results flagged for a closer look

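In the 16 sets of 8 values examined for a library that stands apart (log2 CPM of the 6 tested members and the summed share in each fraction, and CPM of *Retnlb* and *Tff2* in tdTom+), 2 sets had one, and chance alone flags about 1 in 20 sets. Both were the tdTom+ library of mouse 7. For *Spink4* its log2 CPM was 11.54 while the other 7 lay between 10.80 and 11.08, a gap of 0.613 of the whole range. For *Retnlb* it stood at 2.15 CPM while the others lay between 0.246 and 0.780 CPM, a gap of 0.720 of the range. This gap is on the CPM scale, and log2 CPM, which draws in a high value, was not examined for *Retnlb*. Both gaps exceed Dixon's 95% limit for 8 values.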

How the results depend on the processing

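The 6 tested members were higher in tdTom+ under all 18 alternatives that refit the counts, with log2 fold changes from 6.11 to 6.30 for *Agr2*, 7.0 to 7.18 for *Spink4*, 7.13 to 7.31 for *Fcgbp*, 7.18 to 7.36 for *Tff3*, 7.36 to 7.55 for *Zg16* and 7.39 to 7.57 for *Clca1*. Without a count filter, where 15.6% of 27852 genes were called higher, 8 of the 9 members were called, all but *Tff1*. The same 8 were called with DESeq2, which was fitted to the same 27852 genes and called 4406 of them higher. DESeq2 gave *Tff1* no adjusted p. Leaving out each mouse in turn gave 7911 to 8923 called genes, and no replicate block gave 7606 genes and the same 6 members. The split of calls moved with the genes and mice used, from 3956 higher and 4600 lower to 4448 higher of 7804 with at least 10 counts in every sample and 4529 higher of 8155 without mouse 3. The median log2 fold change of all genes then rose by 0.11 in each case. A minimum absolute log2 fold change of 1 left 3498 genes, 1740 higher and 1758 lower, with 4 higher genes of the mucin handling list. The summed member counts were 1390% of *Muc2* counts in tdTom+ and 1602% in tdTom-, and the tdTom- share per kilobase was 0.166%, all by the construction of these measures. Without division by length 0 of the 6 members kept its place in the order of levels. Leaving out single mice kept 4 to 6 of them in place, 4 without mouse 7. Depth limits *Tff1*, *Tff2* and *Retnlb*, for which 1 library's floor is 3 counts.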
